A study of Rattus norvegicus with 12 samples.

Results

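The miR-34 and miR-449 family was followed in 12 small RNA libraries, each from the hippocampus of 1 adult male rat of the Sprague Dawley strain. Its members were taken by name, as every listed arm of miR-34a, miR-34b, miR-34c, miR-449a and miR-449c, which gave 10 of the 753 mature miRNAs in each library. The 4 vehicle rats (numbers 9, 10, 19 and 20) and the 8 ethanol rats (numbers 3, 4, 7, 8, 15, 16, 23 and 24) were 70 to 80 days old, and tissue was taken 3 h after injection. Ethanol rats received 4 g/kg, and the study describes the vehicle as saline. The labels name the right hippocampus, and the study the dorsal hippocampus. The study had 8 rats per group, and its other vehicle rats were not analysed here.

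MicroRNAs are short RNAs that guide a silencing complex to messenger RNAs, mainly by pairing of a seed near the 5′ end. Each precursor folds into a hairpin whose 5′ arm (5p) and 3′ arm (3p) can both be cut out and read. The miR-34 family is known for 2 patterns of use. MiR-34a is transcribed from its own locus in many tissues and is a textbook target of the p53 tumour suppressor. The miR-34b/c and miR-449 clusters are best known from cells that carry many cilia, such as ependyma, choroid plexus and airway epithelium, where they act in the formation of cilia. The choroid plexus, the epithelium that secretes cerebrospinal fluid, lies against the hippocampus in the ventricle.

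The mature sequences, from RefSeq with assembly GRCr8, are shown because the family is defined by them. The table held all 10 family arms. The seed, bases 2 to 8 from the 5′ end, is in capitals, and the remaining bases are in lower case.
rno-miR-34a-5p: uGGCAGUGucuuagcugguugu
rno-miR-34b-5p: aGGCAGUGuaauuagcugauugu
rno-miR-34c-5p: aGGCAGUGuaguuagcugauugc
rno-miR-449a-5p: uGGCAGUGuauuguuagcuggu
rno-miR-449c-5p: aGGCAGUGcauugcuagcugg
rno-miR-34b-3p: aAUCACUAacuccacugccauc
rno-miR-34c-3p: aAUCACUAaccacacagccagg
The 5p arms of all 5 precursors shared 1 seed, which 5 of the 693 mature miRNAs in the table carried (0.722%). The 3p arms of miR-34b and miR-34c shared a second seed that no other entry had (2 of 693). MiR-34b-5p and miR-34c-5p were identical at 21 of 23 positions and differed by A11G and U23C, counted from the 5′ end with the miR-34b base first. MiR-34a-5p and miR-34c-5p were identical at 11 of the 22 positions compared, and miR-34a-5p and miR-449a-5p at 15 of 22. All these counts were made position by position from the 5′ end without gaps. An inserted base lowers such a count, so the counts do not rank the pairs by likeness.

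The hairpin of miR-34c is shown because both of its arms were read. Its arms are in capitals, the 5p arm at bases 13 to 35 and the 3p arm at bases 46 to 67.
Mir34c: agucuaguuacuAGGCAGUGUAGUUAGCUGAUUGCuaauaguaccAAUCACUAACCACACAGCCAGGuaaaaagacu
In GRCr8, Mir34b and Mir34c are neighbours on chromosome 8 beside Btg4, with Mir34c inside the span of Hoatz, Mir449a and Mir449c are neighbours on chromosome 2 inside 1 long non-coding RNA gene, and Mir34a lies on chromosome 5 inside another. The submitters' notes name the older build rn5, so no positions are given.

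Libraries held between 1960702 and 4917929 reads of mature miRNAs, and the mean log2 total differed by -0.38 in ethanol against vehicle rats (two-sided exact permutation test, p = 0.156). Levels are given in CPM, the standard count scaled to a common library size, here with TMM-scaled totals. The arms with reads were 21 to 23 nt long, and levels were compared without a length term. How evenly library preparation captured the different sequences was not tested, so an order of arms is an order of reads. The tissue label was checked against markers. The neuronal list (miR-124-3p, miR-9a-5p, miR-128-3p and miR-138-5p) summed to between 30042 and 38212 CPM in every library, and the choroid plexus list (arms of miR-204, miR-211 and miR-448) to between 16526 and 70914 CPM, so choroid plexus miRNAs were present in all 12.

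The most abundant member was rno-miR-34c-5p (rno marks the rat), at 4509 ± 1996 CPM (SD, n = 12), which ranked 34 of 753 miRNAs by mean CPM. Rno-miR-34b-5p followed at 1963 ± 845 CPM and ranked 62, and rno-miR-34a-5p stood at 226 ± 81.7 CPM and ranked 140. The level of rno-miR-34b-3p was 107 ± 57.9 CPM and that of rno-miR-34c-3p 38.3 ± 19.5. The 2 arms of the second cluster were lower, with 33.0 ± 11.1 CPM for rno-miR-449a-5p and 6.10 ± 1.76 for miR-449c-5p. MiR-34c-3p and miR-449a-5p were neighbours in this order whose means lay closer than the SD of either, and their difference was not tested. The other neighbours in the order held in at least 11 of 12 libraries.

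Of the remaining 3 arms, miR-34a-3p had between 0 and 8 reads and was read in 9 of 12 libraries. MiR-449a-3p and miR-449c-3p had 0 reads in every library, which allows up to 1.53 CPM in the smallest library, where 3 counts are taken as the floor. This floor uses the plain library total, without TMM scaling. The RefSeq entry of miR-449c-3p is 17 nt long, below the 20 to 30 nt that were cut from the gel. That of miR-449a-3p is 22 nt long, inside this range. The cause of the 0 reads was not tested. The filter on low counts dropped a miRNA when 10 or more libraries held fewer than 10 reads of it. It retained 7 of the 10 arms and 420 of the 753 miRNAs. For miR-449c-5p, with between 7 and 38 reads per library, counting alone gives a relative SD of 37.8% at the lowest library and 16.2% at the highest.

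**Figure D1:**
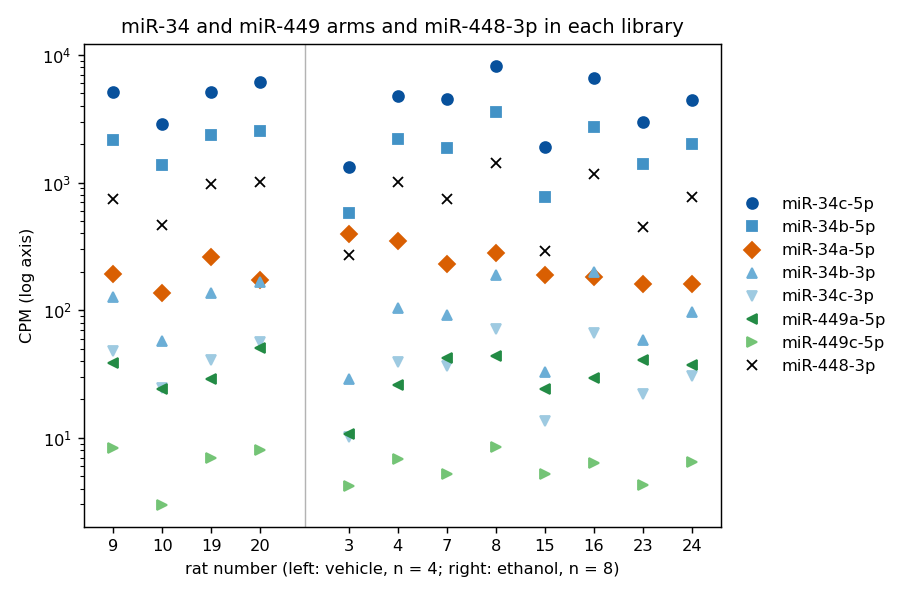
CPM on a log axis of the 7 retained family arms and miR-448-3p in each of 12 libraries, with 4 vehicle rats on the left and 8 ethanol rats on the right; each point is 1 rat. MiR-34c-5p and miR-34b-5p rise and fall together with miR-448-3p and are lowest in ethanol rats 3 and 15, whereas miR-34a-5p is highest in ethanol rats 3 and 4.

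In vehicle rats 9, 10, 19 and 20, miR-34c-5p was at 5148, 2872, 5129 and 6123 CPM. In ethanol rats it ran from 1330 CPM in rat 3 to 8224 in rat 8, with a median of 4498. The 4 vehicle values lay inside the ethanol range, and 2 ethanol rats lay below and 2 above every vehicle rat. MiR-34b-5p was at 2146, 1379, 2374 and 2531 CPM in the same vehicle rats, and ran from 576 to 3593 with a median of 1925 in ethanol rats. Both arms were lowest in ethanol rats 3 and 15 and highest in ethanol rats 8 and 16. In bulk tissue, fewer cells of a type and less RNA per cell cannot be told apart.

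MiR-34a-5p had another order of rats. In vehicle rats 9, 10, 19 and 20 it was at 192, 136, 263 and 172 CPM, and in ethanol rats it ran from 160 to 397 with a median of 210. The highest values were 397 CPM in ethanol rat 3 and 349 in ethanol rat 4, and rat 3 was the library with the least miR-34b-5p and miR-34c-5p. MiR-449a-5p was at 38.6, 24.3, 28.8 and 50.2 CPM in vehicle rats and ran from 10.7 in rat 3 to 44.1 in rat 8 in ethanol rats, with a median of 33.2. MiR-449c-5p was at 8.26, 2.98, 6.94 and 8.09 CPM in vehicle rats and between 4.17 and 8.49 in ethanol rats, with a median of 5.78, so its lowest value was that of vehicle rat 10.

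The 3p arms of miR-34b and miR-34c, which carry the second seed, had the same lowest and highest ethanol rats as their 5p arms, except that miR-34b-3p was highest in rat 16. MiR-34b-3p was at 127, 57.5, 136 and 165 CPM in vehicle rats 9, 10, 19 and 20, and ran from 28.7 to 200 with a median of 93.9 in ethanol rats. MiR-34c-3p was at 47.9, 24.7, 41.0 and 56.6 CPM in vehicle rats, and ran from 10.2 to 70.8 with a median of 33.5 in ethanol rats. For both arms the vehicle values lay inside the ethanol range.

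The members differed in how much they varied between rats. The SD of log2 CPM over the 12 libraries was 0.92 for miR-34b-3p, 0.85 for miR-34c-3p, 0.77 for miR-34c-5p and 0.76 for miR-34b-5p, which ranked 13, 16, 27 and 28 of the 420 retained miRNAs. For miR-449a-5p it was 0.58 (rank 46), for miR-34a-5p 0.48 (rank 70) and for miR-449c-5p 0.41 (rank 95). Counting alone would give the log2 ratio of miR-449c-5p to miR-448-3p an SD of 0.37, so counting can make up much of the 0.41. The median over all retained miRNAs was 0.24. The highest library exceeded the lowest 6.18-fold for miR-34c-5p and 2.93-fold for miR-34a-5p.

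The first comparison asked how miR-34b/c and miR-449 stood against miR-34a inside each library, a ratio that does not depend on scaling. It compares reads, and how evenly the sequences were captured was not tested. The tests of it cover the spread between rats only. MiR-34c-5p exceeded miR-34a-5p in 12 of 12 libraries, on average 18.7-fold (mean log2 ratio 4.23 ± 0.95, SD, n = 12), and miR-34b-5p exceeded it in 12 of 12, on average 8.18-fold (3.03 ± 0.95). MiR-449a-5p was below miR-34a-5p in every library (mean log2 ratio -2.77 ± 0.92), as was miR-449c-5p (-5.04 ± 0.56). The 3p arms were lower than miR-34a-5p too, with mean log2 ratios of -1.23 ± 1.08 for miR-34b-3p, which exceeded it in 1 library, and -2.67 ± 1.02 for miR-34c-3p. Two-sided exact sign-flip permutation tests over the 12 libraries, adjusted over 6 ratios, gave p = 0.000586 for 5 of them, from a raw p of 0.000488, the smallest that the design allows, and p = 0.00146 for miR-34b-3p.

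The ratio of miR-34c-5p to miR-34a-5p was 26.8, 21.2, 19.5 and 35.6 in vehicle rats 9, 10, 19 and 20. In ethanol rats it ran from 3.35 in rat 3 to 36.6 in rat 16, with a median of 19.1. The lowest ratios of all 12 libraries were those of ethanol rats 3, 15 (9.98) and 4 (13.7), and 4 of 8 ethanol rats lay below every vehicle rat. The mean log2 ratio was 4.64 ± 0.39 (SD, n = 4) in vehicle and 4.02 ± 1.10 (SD, n = 8) in ethanol rats, a difference of -0.62 that did not exceed the spread of the rats (exact permutation test, two-sided, p = 0.335, adjusted p = 0.402 over 6 ratios). The differences of the other 5 ratios ran from -0.41 for miR-449c-5p to -0.79 for miR-34b-3p, with exact permutation p between 0.259 and 0.414. The size of these differences depended on single rats. With each rat left out, that of miR-34c-5p ran from -0.79 without ethanol rat 16 to -0.29 without ethanol rat 3, that of miR-34b-3p from -1.02 to -0.46 for the same rats, and that of miR-449a-5p from -0.77 without vehicle rat 19 to -0.21 without ethanol rat 3. None changed sign, and the adjusted p of the 6 ratios stayed between 0.269 and 0.697.

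**Figure D2:**
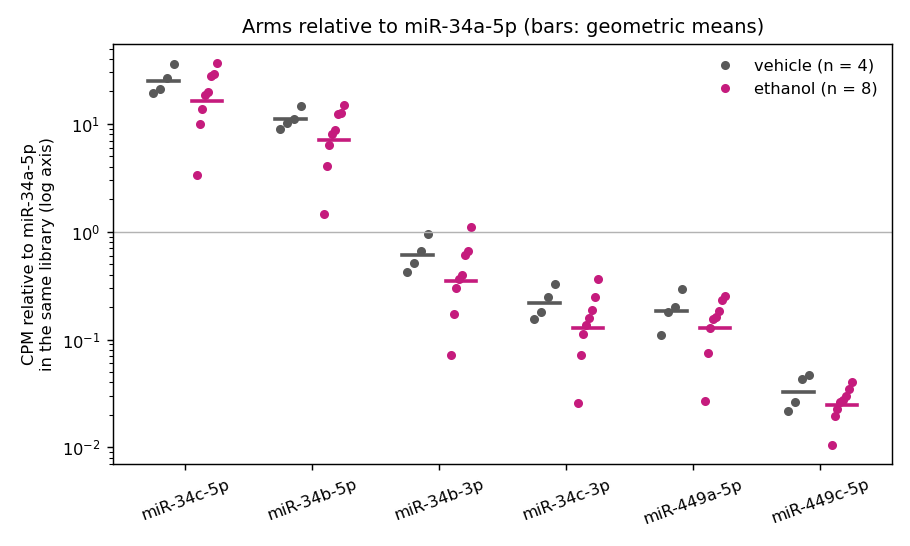
CPM of 6 arms relative to miR-34a-5p in the same library, on a log axis, drawn without the prior count. Each point is 1 rat, bars are geometric means of the 4 vehicle and 8 ethanol rats, and the line at 1 marks equal levels. MiR-34c-5p and miR-34b-5p lie above the line in all 12 libraries and both miR-449 arms below it, and the vehicle and ethanol rats overlap for each arm.

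Reads of the 5 arms with the shared seed took between 0.242% of the library in ethanol rat 3 and 1.15% in ethanol rat 8. MiR-34c-5p made up between 57.4% and 69.2% of them and miR-34b-5p between 24.9% and 31.2%. MiR-34a-5p made up 2.55%, 3.08%, 3.38% and 1.94% in vehicle rats 9, 10, 19 and 20, and from 1.89% in rat 16 to 17.1% in rat 3 in ethanol rats, with a median of 3.48%. The mean share of miR-34a-5p was 2.73% ± 0.633 (SD, n = 4) in vehicle and 5.26% ± 5.03 (SD, n = 8) in ethanol rats (two-sided exact permutation test, p = 0.444). MiR-449a-5p and miR-449c-5p never passed 0.887% and 0.182% of these reads.

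**Figure D3:**
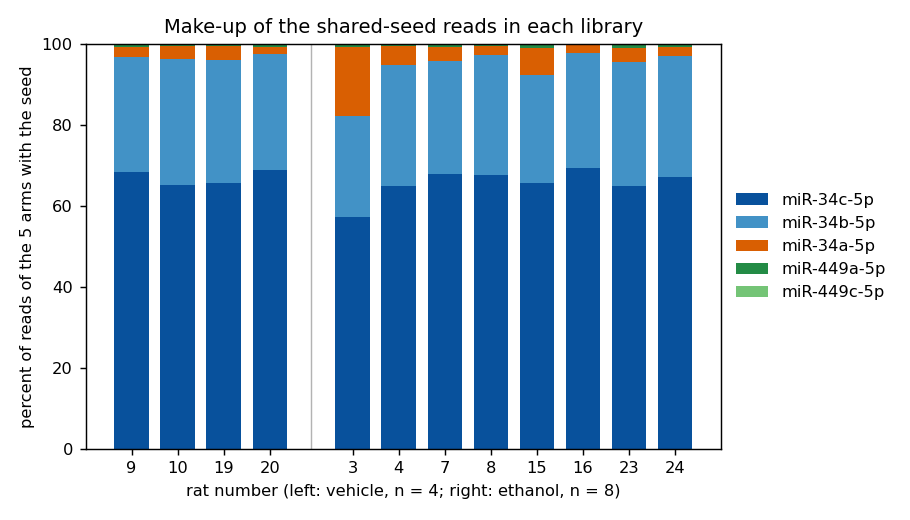
Share of reads, in percent, that each of the 5 arms with the common seed took of their sum in each of 12 libraries (4 vehicle rats on the left, 8 ethanol rats on the right; each bar is 1 rat). MiR-34c-5p and miR-34b-5p fill most of each bar, and miR-34a-5p takes its largest share, 17.1%, in ethanol rat 3.

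MiR-34b and miR-34c come from neighbouring hairpins, and their ratio had an SD of 0.09 on the log2 scale, where the level of each 5p arm had 0.76 or 0.77. MiR-34c-5p was 2.29 ± 0.136 times miR-34b-5p (SD, n = 12), with a range of 2.08 to 2.46. All 12 libraries gave fractional counts for both, and how reads that fit both sequences were divided is not stated, so this ratio also carries that division. The 5p arm exceeded the 3p arm 123 ± 14.1 times for miR-34c and 19.7 ± 3.36 times for miR-34b (SD, n = 12), and the 3p arms were counted whole in 12 and 11 of 12 libraries. The SD of the log2 ratio of the miR-34c arms was 0.15, and counting alone would give 0.17. That of the miR-34b arms was 0.25, where counting alone would give 0.10. MiR-449a-5p was 5.62 ± 2.04 times miR-449c-5p, with an SD of the log2 ratio of 0.50 where counting alone would give 0.41. The observed SDs of log2 ratios include the prior count and those for counting do not, so for low counts they compare only roughly.

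The second comparison set each member against miR-448-3p in the same library. MiR-448 lies inside Htr2c, the serotonin receptor 2C gene, which the choroid plexus expresses strongly. Its sequence, with the seed in capitals, has no seed in common with the family.
rno-miR-448-3p: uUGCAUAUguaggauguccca
MiR-448-3p was at 751, 463, 973 and 1013 CPM in vehicle rats 9, 10, 19 and 20. In ethanol rats it ran from 272 in rat 3 and 289 in rat 15 to 1431 in rat 8, with a median of 760. The largest gap between neighbouring libraries was 0.285 of the log2 range, so the 12 libraries were taken as 1 series.

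All 4 arms of the miR-34b/c cluster rose with miR-448-3p across libraries. Pearson's r of log2 CPM was 0.977 for miR-34b-5p, 0.977 for miR-34c-5p, 0.974 for miR-34b-3p and 0.964 for miR-34c-3p (n = 12 rats; two-sided permutation p = 1e-05 for each, the smallest that 100000 permutations give, and adjusted p = 2e-05 over 7 relations). Spearman's rho was between 0.930 and 0.979 (permutation p between 1e-05 and 5e-05, adjusted p between 3.5e-05 and 8.75e-05). Without ethanol rats 3 and 15, the libraries farthest from the median of miR-448-3p, r was between 0.910 and 0.975. Within the 8 ethanol rats alone it was between 0.980 and 0.982, and with group means removed between 0.969 and 0.979. The slopes on the log2 scale were 0.96 for both 5p arms and 1.16 and 1.05 for miR-34b-3p and miR-34c-3p. MiR-34c-5p was 5.86 ± 0.663 times miR-448-3p (SD, n = 12), a ratio that ranged from 4.71 to 6.86 while miR-448-3p spanned 5.26-fold and miR-34c-5p 6.18-fold.

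The other 3 members had smaller coefficients, and whether coefficients differed between members was not tested. For miR-34a-5p r was 0.045 and rho 0.084 (n = 12 rats; permutation p = 0.888 and 0.799, adjusted p = 0.888 and 0.799). Without ethanol rats 3 and 15 its r was 0.641 (permutation p = 0.0467, adjusted p = 0.0544). Without rat 3 alone r was 0.53, so the value near 0 rests on rat 3, where miR-34a-5p was highest and miR-448-3p lowest. With any 1 rat left out the adjusted permutation p of miR-34a-5p was at least 0.108, so no relation was called. For miR-449a-5p r was 0.637 and rho 0.545 (permutation p = 0.0214 and 0.0705, adjusted p = 0.025 and 0.0822). Without ethanol rats 3 and 15 its r fell to 0.164 (permutation p = 0.645), so this relation rests on those libraries, and without rat 3 alone r was 0.40. For miR-449c-5p r was 0.743 and rho 0.769 (permutation p = 0.00594 and 0.00548, adjusted p = 0.00832 and 0.00767), and r was 0.820 without those libraries. The SD of the log2 ratio to miR-448-3p was 0.17 for both miR-34b-5p and miR-34c-5p, 0.61 for miR-449a-5p, 0.55 for miR-449c-5p and 0.90 for miR-34a-5p. Counting alone, taken without the prior count, would give 0.04, 0.04, 0.17, 0.37 and 0.07.

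**Figure D4:**
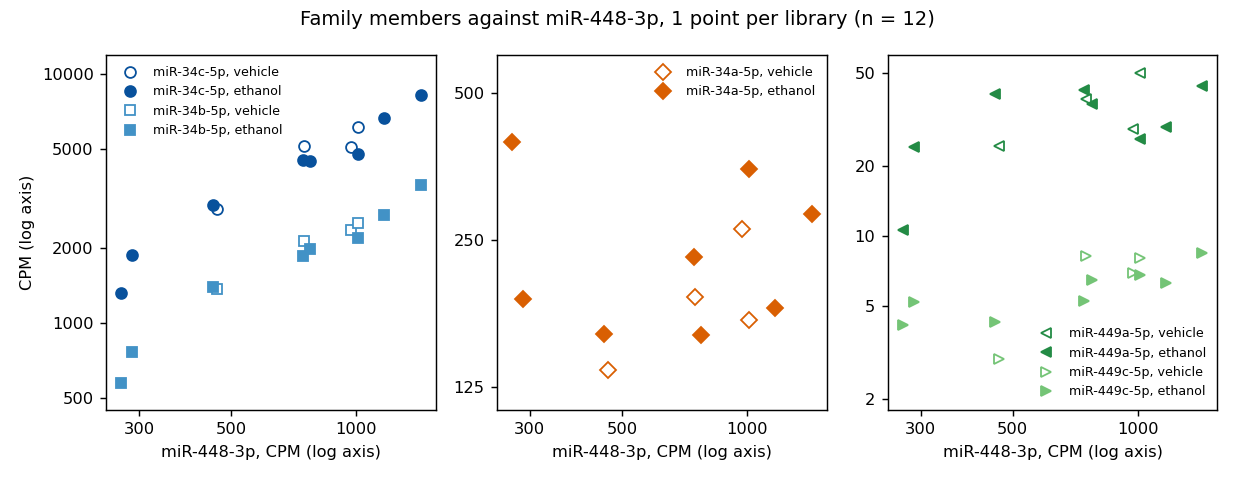
CPM of miR-34c-5p and miR-34b-5p (left), miR-34a-5p (middle) and miR-449a-5p and miR-449c-5p (right) against CPM of miR-448-3p, all axes log and the vertical axis different in each panel; open points are the 4 vehicle rats and filled points the 8 ethanol rats. The miR-34b/c points fall along a line (r = 0.977 for both). For miR-34a-5p r is 0.045, or 0.53 without ethanol rat 3, which lies at the upper left of its panel. Neither value has an adjusted permutation p under 0.05.

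Among the 413 retained miRNAs outside the family, the 5 with the pattern most like the summed miR-34b/c arms, by Pearson's r of log2 CPM over 12 libraries, were miR-204-5p (0.979), miR-1298 (0.979), miR-448-3p (0.978), miR-211-5p (0.975) and miR-764-3p (0.946). MiR-1298, miR-448 and miR-764 lie inside Htr2c, and miR-204 and miR-211 are enriched in choroid plexus. The values share libraries and scaling and are given as a description. The summed choroid plexus list had an r of 0.981 with miR-34b/c, the summed epithelial list (miR-200 family and miR-182, miR-183 and miR-96) 0.463, the muscle list 0.518, the blood cell list 0.274, the vessel list 0.135, the microglia and leukocyte list 0.003, the oligodendrocyte list -0.314 and the neuronal list -0.319.

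The 5 miRNAs most like miR-34a-5p were miR-592 (r = 0.923), miR-140-3p (0.876), miR-203a-3p (0.869), miR-490-3p (0.814) and miR-450b-5p (0.802), none of which was among those most like miR-34b/c. MiR-448-3p ranked 182 of 413 for miR-34a-5p. Without ethanol rat 3, these 5 values lay between 0.709 and 0.882.

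The third comparison asked whether ethanol changed the family. By edgeR's quasi-likelihood test, 0 of the 7 retained members reached a raw p under 0.05, in either direction. Over all 420 retained miRNAs 17 did (4.05%), of which 10 were lower (2.38%) and 7 higher (1.67%) in ethanol rats, and 0 (0%) had an adjusted p under 0.05. DESeq2's Wald test gave 1 miRNA, outside the family, with an adjusted p under 0.05, and limma-trend gave 0. The count of 17 fell to 5 without vehicle rat 20, 9 without vehicle rat 9, 10 without ethanol rat 4 and 11 without ethanol rat 8, and without ethanol rat 16 there were 3 miRNAs with an adjusted p under 0.05, each outside the family. For 0 of the 7 members did the groups fail to overlap, against 0.238% of retained miRNAs.

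MiR-34a-5p was the only retained member with a higher level in ethanol rats, 244 ± 90.3 CPM (SD, n = 8) against 191 ± 53.8 (SD, n = 4). The log2 fold change was 0.35, its 95% interval ran from -0.23 to 0.94, and edgeR's adjusted p was 0.971. When rats were left out singly the fold change stayed between 0.22 and 0.55. Only 3 of 8 ethanol rats lay above every vehicle rat, which were rats 3, 4 and 8.

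The other 6 retained members had log2 fold changes below 0, against 54% of all retained miRNAs. MiR-34c-5p was at 4355 ± 2317 CPM (SD, n = 8) in ethanol and 4818 ± 1378 (SD, n = 4) in vehicle rats. Its log2 fold change was -0.15 (95% interval -1.01 to 0.72, edgeR adjusted p = 0.993). MiR-34b-5p had -0.16 (-1.01 to 0.69), miR-34b-3p -0.28 (-1.31 to 0.75) and miR-34c-3p -0.25 (-1.19 to 0.69). MiR-449a-5p had -0.17 (-0.81 to 0.48) and miR-449c-5p -0.20 (-0.73 to 0.33). The edgeR adjusted p of these 6 lay between 0.971 and 0.993, and exact permutation tests of mean log2 CPM over 495 splits gave p between 0.418 and 0.762. The direction of 3 of them turned when 1 rat was left out. Without ethanol rat 3 the log2 fold change was 0.019 for miR-34b-5p and 0.030 for miR-34c-5p, and without vehicle rat 20 it was 0.029 for miR-34c-5p and 0.088 for miR-449a-5p. These 3 and both 3p arms of the miR-34b/c cluster also turned when ethanol rats 3 and 15 were left out together (log2 fold changes between 0.06 and 0.17), an alternative chosen after seeing the data. The arms of 1 precursor or cluster are not independent of each other.

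MiR-448-3p itself had a log2 fold change of -0.06 (95% interval -0.96 to 0.84), which ran from -0.25 to 0.11 with each rat left out, and the ratios of the 7 members to it passed no test between groups. The smallest p was that of miR-34b-3p, whose ratio to miR-448-3p was 0.149 ± 0.021 (SD, n = 4) in vehicle and 0.125 ± 0.0215 (SD, n = 8) in ethanol rats (difference of -0.25 in the mean log2 ratio, two-sided exact permutation p = 0.0909, adjusted p = 0.453 over 7 ratios). With log2 CPM of miR-448-3p as a covariate in the edgeR fit, 0 of the 7 members had a raw p under 0.05.

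**Figure D5:**
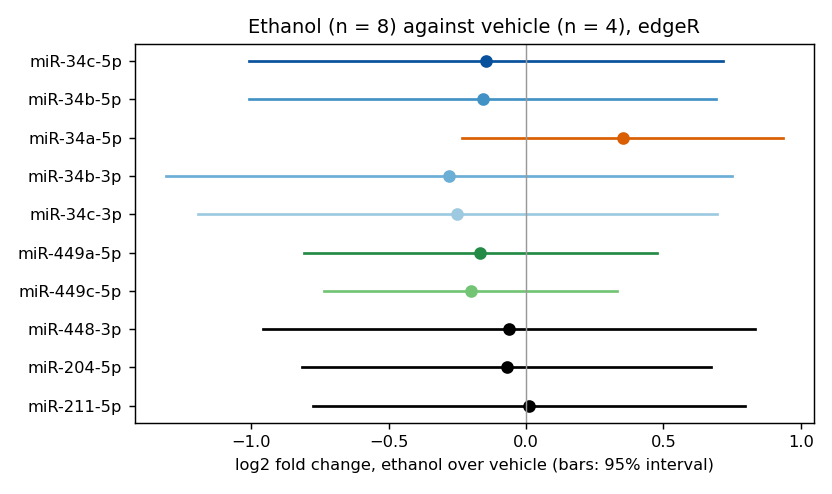
Log2 fold change of ethanol (n = 8) over vehicle (n = 4) from edgeR for the 7 retained family members and 3 choroid plexus miRNAs; points are estimates and bars 95% intervals. Every interval includes 0, and miR-34a-5p has the highest estimate, 0.35.

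Outside the family, 1 of the 37 retained miRNAs of the other lists had a raw p under 0.05, against 17 of all 420 (4.05%). At that share a list of 3 to 6 miRNAs mostly holds 0, so the counts of 0 below say little about a list. Of 5 retained miRNAs in the choroid plexus list, 4 had a lower and 1 a higher estimate, with a median log2 fold change of -0.07, and 0 had a raw p under 0.05. MiR-204-5p had -0.07 and miR-211-5p 0.01, and neither sign was stable. With each rat left out, miR-204-5p ran from -0.24 to 0.082, above 0 without vehicle rat 19 or 20 or ethanol rat 3 or 15. MiR-211-5p ran from -0.15 to 0.18, below 0 without vehicle rat 9 or 10 or ethanol rat 4, 7, 8 or 16, and was -0.037 with library totals alone and -0.14 with limma-trend. The 5 retained miRNAs of the Htr2c intron cluster had a median of -0.19, and the 6 retained miRNAs of the list linked to p53 outside the family (such as miR-192-5p, miR-194-5p and miR-107-3p) a median of 0.14, in each case with 0 at a raw p under 0.05. The medians were -0.03 for the 4 epithelial, -0.08 for the 4 neuronal, 0.19 for the 3 oligodendrocyte, 0.08 for the 4 vessel, -0.002 for the 3 blood cell and 0.04 for the 4 microglia and leukocyte miRNAs, again with 0 at a raw p under 0.05. The median over all 420 was -0.02. In the muscle list, with a median of -1.76 over 3 miRNAs, miR-133a-3p had a raw p under 0.05 (log2 fold change -1.99, edgeR adjusted p = 0.971), and without ethanol rat 16 its adjusted p was 0.0276. Summed muscle miRNAs ran from 128 to 1766 CPM in vehicle and from 112 to 1712 in ethanol rats, and their part in the family's values was not tested.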

How the data were processed

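Small RNA (20 to 30 nt, from 1 µg of total RNA per rat) was sequenced for 37 cycles in sets of 8 libraries. The labels do not say which set a library belonged to, and batches were not compared. Per the labels, the submitters' processing notes name cutadapt, Partek and the genome build rn5. The method of counting and the miRNA annotation are not given in the sources used here. The deposited values are expected counts (estimated counts) per mature miRNA, made by the authors and not scaled to library size. Between 80.2% and 83.4% of the values of a library were whole.

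Expected counts were rounded. A miRNA was dropped when 10 or more libraries held fewer than 10 of its reads (420 of 753 retained). Groups were tested with edgeR (quasi-likelihood) on all retained miRNAs, with TMM scaling, no covariates and Benjamini-Hochberg adjustment (R 4.3.3, edgeR 4.0.16, limma 3.58.1, DESeq2 1.42.0). The 95% intervals are from that fit. The fit was tested on simulated counts. The study used two-sample tests with raw p-values on median-normalized data, and a count test was used here because the values are counts. Log2 CPM used a prior count of 2. Single values were compared by exact permutation over 495 splits, ratios within a library by 4096 sign flips, and correlations by 100000 permutations. At 3 counts the floor ran from 0.610 to 1.53 CPM, taken over plain library totals without TMM scaling. It covers only counting error, since no molecular identifiers were used. Fold changes from edgeR compare mean levels, and permutation tests compare mean log2 CPM, so their sizes differ.

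The members and lists were chosen with earlier results of these data known. Named were all family arms, miR-448-3p, listed markers and the 5 miRNAs most like miR-34b/c and like miR-34a-5p. Alternatives covered scaling, filter, test, covariate, prior count, rounding and each rat left out. Of the listed miRNAs, miR-1264 (both arms), miR-215 and miR-15a-5p had no entry under those names. RefSeq sequences matched 688 of 753 names.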

Additional observations from a re-analysis of the deposited data

Results flagged for a closer look

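Values per library of 16 measures (log2 CPM of the 7 retained arms and miR-448-3p, the 6 log2 ratios to miR-34a-5p, the log2 library total and the family's share of the library) were searched, group by group, for a rat set apart by a wide gap. This happened in 1 of 32 cases, where chance gives about 1 in 20, or 1.6. For miR-449a-5p, ethanol rat 3 was the lowest of its group at 3.50 log2 CPM. The next lowest was 4.63 and the highest 5.48, and the gap took up 0.572 of the range. The library held 23 reads of miR-449a-5p, where counting alone gives a relative SD of 20.9%. The same rat had the least miR-34b-5p, miR-34c-5p and miR-448-3p and the most miR-34a-5p of the 12 libraries.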

How the results depend on the processing

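The order of the arms against miR-34a-5p and the relation of the 4 miR-34b/c arms and miR-449c-5p to miR-448-3p kept their direction and side of the threshold under every alternative run for them, including each rat left out (r between 0.95 and 0.99 for miR-34b/c and between 0.70 and 0.80 for miR-449c-5p). The r of miR-34a-5p with miR-448-3p turned to -0.014 with library totals alone and to -0.035 with miR-204-5p and miR-211-5p in place of miR-448-3p, and ran from -0.075 to 0.53 with each rat left out. For miR-449a-5p r ran from 0.40 to 0.73, and its adjusted p passed 0.05 without ethanol rat 3 or ethanol rat 8. MiRNAs with an adjusted p under 0.05 numbered 1 with DESeq2's Wald test and from 0 to 3 with each rat left out, both over all miRNAs and over the fixed lists. Raw p under 0.05 was reached by between 5 and 24 miRNAs with each rat left out and by 11 without ethanol rats 3 and 15. Of the 37 listed miRNAs outside the family, 1 had a raw p under 0.05, where 17 of all 420 did (4.05%). The count of 1 became 2 with DESeq2 size factors, library totals, upper quartile scaling, either other filter, DESeq2's test or the covariate. It was 3 with limma-trend, 0 without ethanol rats 3 and 15 and between 1 and 4 with each rat left out.

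Without ethanol rats 3 and 15, log2 fold changes were 0.16 for miR-34b-5p, 0.057 for miR-34b-3p, 0.17 for miR-34c-5p, 0.081 for miR-34c-3p, 0.063 for miR-449a-5p, 0.26 for miR-448-3p and 0.22 for miR-204-5p. That of miR-211-5p was -0.037 with library totals and -0.14 with limma-trend. With each rat left out the ranges that crossed 0 were -0.36 to 0.019 for miR-34b-5p, -0.34 to 0.030 for miR-34c-5p, -0.30 to 0.088 for miR-449a-5p, -0.25 to 0.11 for miR-448-3p, -0.24 to 0.082 for miR-204-5p and -0.15 to 0.18 for miR-211-5p, and in mean log2 CPM -0.39 to 0.038 for miR-449c-5p. The cause of these turns was not tested. No family member reached an adjusted p under 0.05 in any alternative. No paired analysis was possible because the groups share no animal numbers. With 4 vehicle rats, exact permutation cannot give a p below 0.00202.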
